A study of Jatropha curcas with 15 samples.

Results

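The jasmonate genes described here were represented by 4 probes of the *Jatropha curcas* array, 1 for each gene. They were CUST_31636 for *AOS*, CUST_5083 for *OPR3*, CUST_31426 for *AIM1* and CUST_14900 for *JMT*, chosen by probe number out of 41651 probes. The study assigned each probe to an *Arabidopsis* gene by sequence comparison (AT5G42650 for *AOS*, AT2G06050 for *OPR3*, AT4G29010 for *AIM1* and AT1G19640 for *JMT*), and the names are those of the homologs. Transcript levels were measured in inflorescence buds of 1-year-old field-grown plants treated with 1 mM of the synthetic cytokinin 6-benzyladenine (BA) and collected after 0, 3, 12, 24 or 48 h. Each time point had 3 arrays, which the study calls biological replicates. No genotype or strain distinguished the groups, and the labels do not say how many plants gave each replicate. No untreated buds from the later time points were analysed here, so BA, the application itself and the time of day cannot be told apart.

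Jasmonic acid is made from linolenic acid of membrane lipids. A lipoxygenase oxygenates the fatty acid in the plastid, AOS (allene oxide synthase) dehydrates the product to an unstable allene oxide, OPR3 (12-oxophytodienoate reductase) reduces the cyclised intermediate in the peroxisome, and AIM1, a multifunctional protein of beta-oxidation, helps to shorten the side chain. JMT (jasmonic acid carboxyl methyltransferase) then turns jasmonic acid into the volatile methyl ester. In *Arabidopsis* flowers, jasmonate is required for stamen filaments to elongate and for pollen to be shed.

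All 4 probes were well above background on all 15 arrays. Levels are given as normalized log2 intensity, the log2 processed intensity minus the 75th percentile of the same array, so that a value of 0 lies at that percentile. Levels of different probes cannot be set against each other. Called probes are those with a change of 2-fold or more and an adjusted p of 0.05 or less in limma (Benjamini-Hochberg over 34470 tested probes). Of the floral identity probes, *AP1*, *AP3*, *AG*, *SEP1*, *SEP2*, *SEP3* and *STK* were well above background on all 15 arrays, whereas *PI* was so on 5. The meristem probe *STM* and a light-harvesting complex probe were detected on all of them as well. Arrays of 0 h and replicate 1 of 3 h shared 1 slide and an earlier scan day, and the other 11 arrays were scanned 6 days later. In these bulk buds, fewer cells of a type and less RNA per cell cannot be told apart.

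The synthesis genes that changed were higher after BA, and *JMT* was lower. *OPR3* was higher at 3, 12 and 24 h than at 0 h, and the *AIM1* probe CUST_31426 was higher at 12 h. CUST_10351 and CUST_30540, also listed under *AIM1*, changed by 0.27 and 0.02 log2 units at 12 h and did not pass the test. *JMT* was lower at 3, 12 and 48 h, and its level at 12 h was 21.3-fold below that at 0 h. *AOS* did not pass the test at any time. At 3 h, 1 of the 4 probes was called higher and 1 lower, where 1.69% of all tested probes were called higher and 0.896% lower. At 12 h, 2 of the 4 were called higher and 1 lower, against a background of 3.5% and 5.54%. At 24 h, 1 was called higher (background 2.18%) and none lower (background 0.998%). At 48 h, 1 was called lower (background 0.818%) and none higher (background 1.88%). The paper had already reported *AOS*, *OPR3* and *AIM1* as upregulated and *JMT* as downregulated on these same arrays. The counts beside the background are therefore a description and no independent test. Over the 5 time points together, limma's F test passed for 3 of the 4 probes (*OPR3*, *AIM1* and *JMT*) and for 56.2% of all tested probes.

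**Figure D1:**
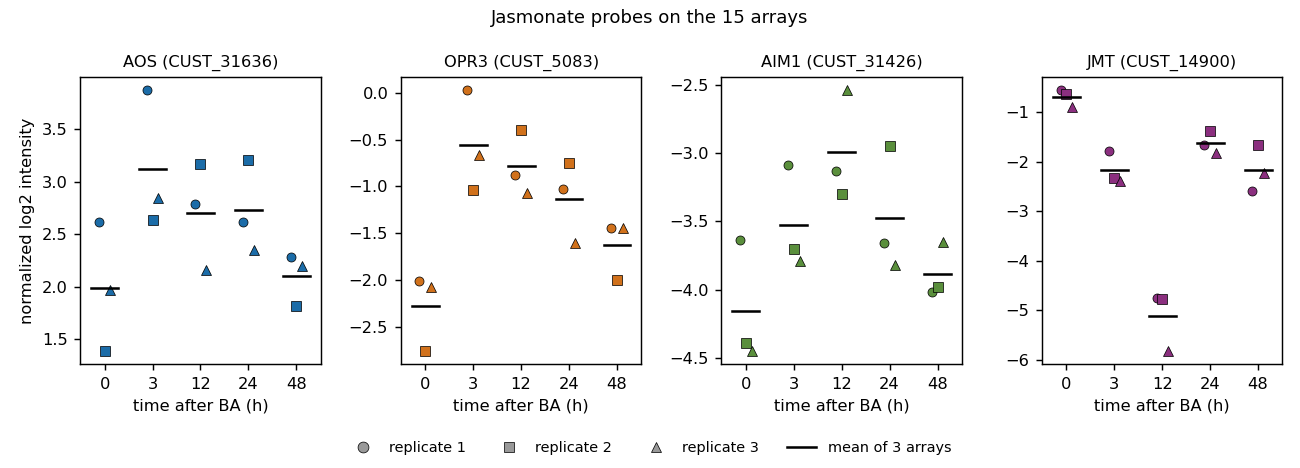
Normalized log2 intensity (vertical axis, a separate scale in each panel) of the 4 probes on each of the 15 arrays, by time after BA (horizontal axis, equally spaced and not to scale). Symbols mark the replicates and bars the mean of 3 arrays; *OPR3* at 3 h lies between -1.04 and 0.03, above all 0 h arrays, and *JMT* at 12 h lies between -5.82 and -4.75, below all other arrays.

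**Figure D2:**
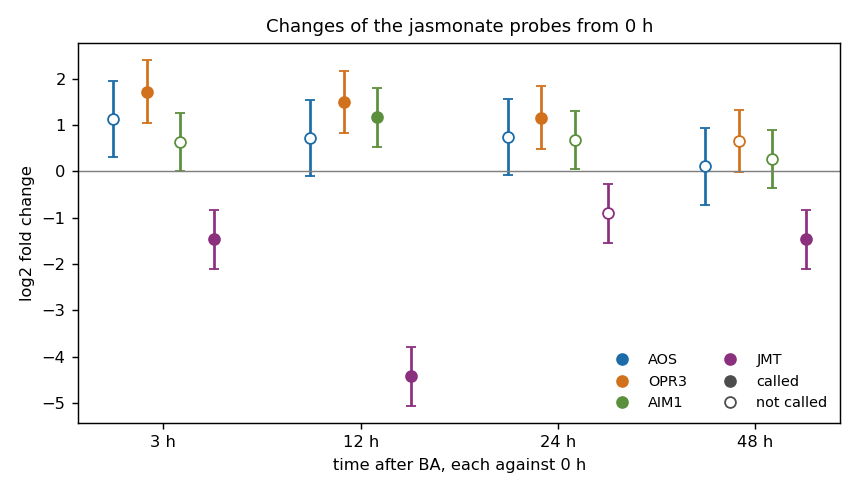
Log2 fold change against 0 h (vertical axis) of the 4 probes at 3, 12, 24 and 48 h, with 95% confidence intervals from the limma fit. Filled symbols are called changes; *JMT* at 12 h, at -4.41, is the farthest from 0, and *AOS* has open symbols at all 4 times.

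*OPR3*, the reductase step, gave 3 called increases. For replicates 1, 2 and 3, its level was -2.01, -2.76 and -2.08 on the 0 h arrays, 0.03, -1.04 and -0.66 on those of 3 h, -0.88, -0.40 and -1.07 on those of 12 h, -1.03, -0.75 and -1.61 on those of 24 h, and -1.44, -2.0 and -1.44 on those of 48 h. Each array taken after BA lay above all 3 arrays of 0 h, with the closest approach at 48 h, where replicate 2 (-2.0) sat just above replicate 1 of 0 h (-2.01). Among all tested probes, 14.4% had 3 h arrays wholly above those of 0 h, and for 12, 24 and 48 h these shares were 24.7%, 18.6% and 21.1%.

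The level of *OPR3* at 3 h was 3.3-fold that at 0 h (log2 fold change 1.72 ± 0.31 SE, limma adjusted p = 0.00434). It was 2.83-fold that at 0 h at 12 h (1.5 ± 0.31, adjusted p = 0.00261) and 2.22-fold at 24 h (1.15 ± 0.31, adjusted p = 0.0287). At 48 h the change of 0.66 (95% interval -0.02 to 1.33) did not pass the test (adjusted p = 0.173). In the order of mean levels, from low to high, the time points ran 0, 48, 24, 12 and 3 h, and no neighbours in that order differed by the test (adjusted p between 0.173 and 0.601). Over the whole interval the level at 48 h was lower than at 3 h (-1.07 ± 0.31, adjusted p = 0.029), where 1.9% of all tested probes were called lower, but not with the scan day entered as a block (-0.78, adjusted p = 0.111), with normexp background correction (adjusted p = 0.127) or without moderation (adjusted p = 0.0526). The call at 24 h was lost with the scan day entered as a block, although the estimate was larger there (2.03, adjusted p = 0.0741). It was also lost on leaving out replicate 2 of 0 h, or replicate 1 or 2 of 24 h, and its log2 fold change lay between 0.92 and 1.39 over all single arrays left out.

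*AOS*, the entry enzyme of the jasmonate branch, had the same order of arrays within each time point as *OPR3* but a wider spread. Its level for replicates 1, 2 and 3 was 2.62, 1.39 and 1.97 on the 0 h arrays, 3.87, 2.64 and 2.84 on those of 3 h, 2.79, 3.17 and 2.16 on those of 12 h, 2.62, 3.21 and 2.35 on those of 24 h, and 2.28, 1.82 and 2.20 on those of 48 h. The 3 arrays of 3 h lay above those of 0 h by a narrow margin, 2.64 against 2.62 at the closest. The same held for 14.4% of all tested probes at 3 h. The other times overlapped with 0 h. At 0 h replicate 1 stood well above replicate 2.

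The mean of *AOS* at 3 h was 2.18-fold that at 0 h, with a log2 fold change of 1.13 ± 0.38 SE (95% interval 0.30 to 1.95), which did not pass the test over all probes (limma adjusted p = 0.0735). The changes at 12 h (0.71, interval -0.11 to 1.54), 24 h (0.73, interval -0.09 to 1.56) and 48 h (0.11, interval -0.72 to 0.93) did not pass it either, nor did the F test (adjusted p = 0.0853). These intervals include increases of more than 2-fold at 3, 12 and 24 h. Without 0 h replicate 1, the change at 3 h passed (1.44, adjusted p = 0.0409). It also passed with the scan day entered as a block (1.88, adjusted p = 0.0339), where it rests on the 1 array of 3 h that shared the scan day of the 0 h arrays. No neighbours in the order of mean levels (0, 48, 12, 24 and 3 h, from low to high) differed by the test, with adjusted p between 0.245 and 0.978.

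The spread of *AOS* was shared by its second probe and by *OPR3*. At each of the 5 time points, the array with the highest *AOS* level was also the highest for *OPR3*, and the lowest array was also the same. Pearson's r between the 2 probes over the 15 arrays was 0.898, as a description over points that share arrays and time points. The pooled SD within time points was 0.52 for *AOS* and 0.42 for *OPR3*, against a median of 0.16 over all probes measured on every array. CUST_30692, also listed under *AOS*, followed CUST_31636 with r = 0.997 and changed by 1.12 ± 0.37 at 3 h (adjusted p = 0.0667). Unlike those of CUST_31636, its 3 h arrays overlapped with those of 0 h, at 2.94 for replicate 2 of 3 h against 2.95 for replicate 1 of 0 h. The scanner software took the *AOS* signal from its low-gain scan on 13 of 15 arrays because of its brightness, and all arrays but replicates 2 and 3 of 0 h were among them. For the other 3 genes this was so on no array, and the part of the scan setting in the *AOS* values was not tested.

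*AIM1*, the beta-oxidation step, gave processed intensities between 232.5 and 1266.8 units, where the local background of the arrays lay between 36.0 and 49.5 units. Its level for replicates 1, 2 and 3 was -3.64, -4.39 and -4.45 on the 0 h arrays, -3.09, -3.70 and -3.79 on those of 3 h, -3.13, -3.30 and -2.54 on those of 12 h, -3.66, -2.95 and -3.82 on those of 24 h, and -4.02, -3.98 and -3.65 on those of 48 h. Only at 12 h did all 3 arrays lie above those of 0 h, as for 24.7% of all tested probes at that time. Replicate 1 at 0 h stood above the other two, as it did for *AOS*, and replicate 3 at 12 h was the highest array of the series.

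At 12 h the level of *AIM1* was 2.24-fold that at 0 h (log2 fold change 1.16 ± 0.29 SE, limma adjusted p = 0.00806). The changes of 0.63 at 3 h (95% interval 0.00 to 1.26), 0.68 at 24 h (0.05 to 1.31) and 0.27 at 48 h (-0.36 to 0.90) did not pass the test, with adjusted p of 0.183, 0.131 and 0.559. From low to high, the mean levels ran 0, 48, 3, 24 and 12 h, and no neighbours differed by the test (adjusted p between 0.247 and 0.921). The level at 48 h was lower than at 12 h by adjusted p, at less than 2-fold (-0.89 ± 0.29, adjusted p = 0.0331), where 16% of all tested probes were lower by that rule. It did not pass after normexp background correction (-0.85, adjusted p = 0.179), without scaling (adjusted p = 0.0592) or without moderation (adjusted p = 0.059). The increase at 12 h was lost after normexp background correction with an offset of 50 units (0.42, limma adjusted p = 0.43). It was also lost with the slide entered as a block (1.60, adjusted p = 0.0945). The cause of either loss was not tested.

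The other probes listed under *AIM1* gave smaller changes from 0 h, and the difference from CUST_31426 was not tested. CUST_10351 changed by 0.27 (95% interval -0.02 to 0.57) and CUST_30540 by 0.02 (interval -0.28 to 0.31) at 12 h, and neither passed the test at any time. Their levels at 12 h lay between -0.62 and -0.34 for CUST_10351, against -1.01 to -0.56 at 0 h, and between 1.21 and 1.45 for CUST_30540, against 1.14 to 1.48 at 0 h. Over the 15 arrays they followed each other (r = 0.807) more closely than either followed CUST_31426 (r = 0.639 and 0.239). Whether the 3 probes read 1 gene or several cannot be told from the array files. Of the probes listed under the 4 genes, CUST_10351 is the one whose sequence was found in the tables used here, and it is shown to identify the *AIM1*-like transcript it reads. It is a 60-base oligonucleotide with 43.3% G and C, written 5′ to 3′ as the study's probe list gives it.
CUST_10351: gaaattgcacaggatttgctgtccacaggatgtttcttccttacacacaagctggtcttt

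**Figure D3:**
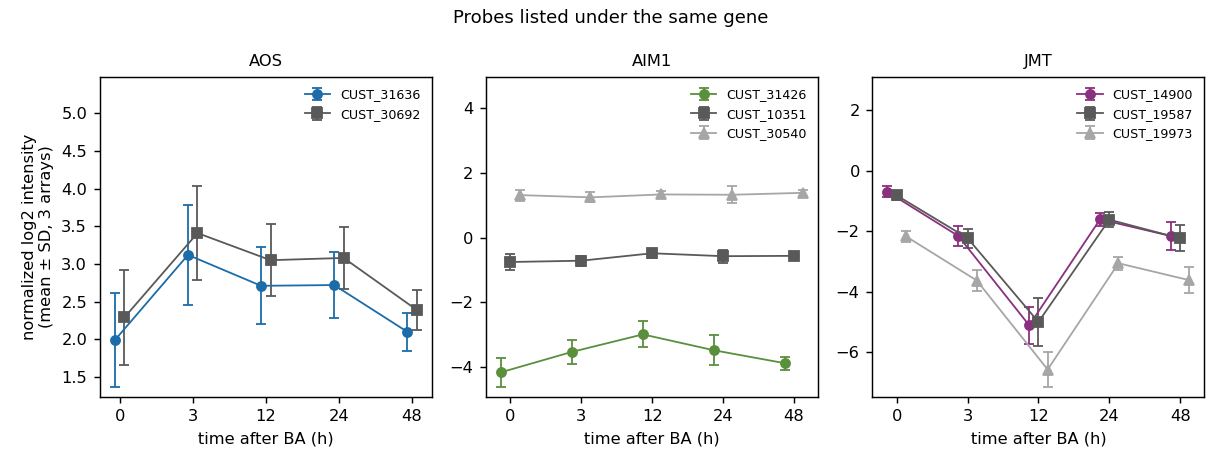
Normalized log2 intensity (vertical axis, mean ± SD of 3 arrays) over time after BA (horizontal axis, equally spaced and not to scale) for the probes listed under *AOS*, *AIM1* and *JMT*, with CUST_31636, CUST_31426 and CUST_14900 in colour. The curves of *AOS* and of *JMT* run in parallel, whereas for *AIM1* CUST_10351 and CUST_30540 differ from 0 h by 0.27 and 0.02 at 12 h, beside 1.16 for CUST_31426; heights of different probes are not comparable.

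*JMT*, the methylation step, showed the largest change of the 4. Its level for replicates 1, 2 and 3 was -0.55, -0.63 and -0.90 on the 0 h arrays, -1.78, -2.33 and -2.38 on those of 3 h, -4.75, -4.76 and -5.82 on those of 12 h, -1.65, -1.37 and -1.81 on those of 24 h, and -2.59, -1.66 and -2.22 on those of 48 h. All arrays after BA lay below all arrays of 0 h, and the arrays of 12 h lay below every other array. Among all tested probes, 21.1% had 3 h arrays wholly below those of 0 h, and for 12, 24 and 48 h these shares were 20.2%, 17.8% and 17.2%.

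The level of *JMT* at 3 h was 2.76-fold below that at 0 h (log2 fold change -1.47 ± 0.29 SE, limma adjusted p = 0.00732). At 12 h the log2 fold change was -4.41 ± 0.29 (adjusted p = 2.48e-07). At 24 h it was -0.91 ± 0.29 (95% interval -1.55 to -0.28), which missed the threshold (adjusted p = 0.0549), while the 48 h value of -1.46 ± 0.29 passed (adjusted p = 0.00986). The step from 3 to 12 h was itself a change (12 h over 3 h, -2.95, adjusted p = 7.25e-06), for which 6.91% of all tested probes were called lower. So was the next step (24 h over 12 h, 3.5, adjusted p = 3.04e-06), for which 4.06% were called higher. In the order of mean levels, 12 h was lowest, followed by 3, 48, 24 and 0 h. Of the neighbours in that order, 12 and 3 h differed by the test, and the rest did not (adjusted p between 0.0549 and 0.994). The level at 48 h was again above that at 12 h (2.95, adjusted p = 1.04e-05), where 5.3% of all tested probes were called higher, and it differed from that at 3 h by 0.00 (95% interval -0.63 to 0.64).

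The course of *JMT* was the same in its other probes. CUST_19587 changed by -1.41, -4.18, -0.80 and -1.42 at 3, 12, 24 and 48 h, and CUST_19973 by -1.46, -4.40, -0.89 and -1.46. Both were called lower at 3, 12 and 48 h. CUST_19973 also passed the test at 24 h (adjusted p = 0.0487), at less than 2-fold. Their r with CUST_14900 over the 15 arrays was 0.998 and 1.0, rounded.

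Within slides, the direction at 3 and 12 h held. On the slide with the 0 h arrays, the 1 array of 3 h was at -1.78, against a mean of -0.70 at 0 h. On the next slide, 2 arrays of 12 h averaged -4.76 and 2 arrays of 3 h averaged -2.35. On the third slide, the 3 arrays of 24 h averaged -1.61, against -5.82 on the 1 array of 12 h. With the scan day entered as a block, the change at 12 h was -3.84 (adjusted p = 0.000755), whereas those at 3 h (-1.09, adjusted p = 0.132) and 48 h (-0.89, adjusted p = 0.41) no longer passed. With the slide entered as a block, the change at 24 h turned to 0.71 (adjusted p = 0.364), and no value could be had for 48 h, whose arrays filled a slide alone.

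Other transcripts moved with *JMT* at 12 h. *GI* (*GIGANTEA*, a clock gene whose transcript cycles through the day in *Arabidopsis*) was at -3.63, -3.58 and -3.62 on the 0 h arrays, 0.07, 0.14 and 0.21 on those of 3 h, 2.96, 2.58 and 2.92 on those of 12 h, -3.22, -3.16 and -2.73 on those of 24 h, and -2.29, -2.30 and -2.44 on those of 48 h. Its level was thus highest where *JMT* was lowest, and at 24 and 48 h it was 0.57 and 1.26 log2 units above 0 h. Among the 7 floral identity probes tested, 6 were lower at 12 h than at 0 h by adjusted p, with a median change of -1.48, where 16% of all tested probes were lower by that rule. None was lower at 3, 24 or 48 h, and 1 was higher at 48 h. Their mean level per array lay between -3.35 and -1.97 at 12 h, against -1.11 to -0.93 at 0 h, and replicate 3 of 12 h was the lowest. The fall of *JMT* was larger than each of theirs, of which that of *AP3* (-2.15) was the largest, and without 12 h replicate 3 it was still -4.06 (adjusted p = 5.55e-07). *STM* differed by -0.10 at 12 h (adjusted p = 0.733), and the light-harvesting complex probe was lower (-1.72, adjusted p = 0.00123). The part of the time of day and of bud composition in the *JMT* values was not tested.

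**Figure D4:**
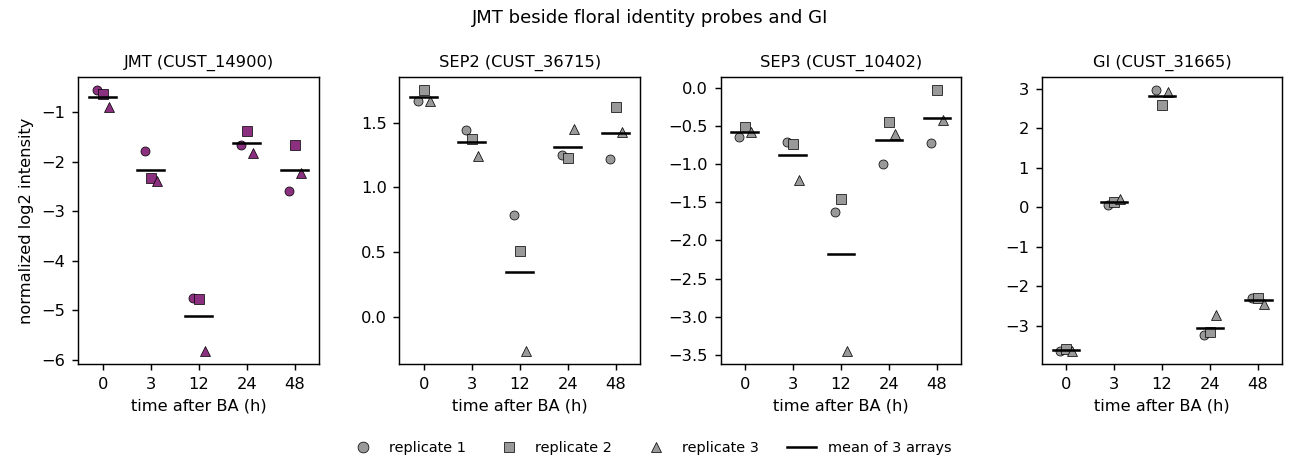
Normalized log2 intensity (vertical axis, a separate scale in each panel) of *JMT*, the floral identity probes *SEP2* and *SEP3*, and *GI* on the 15 arrays, by time after BA (horizontal axis, equally spaced and not to scale). Bars are means of 3 arrays; at 12 h *JMT* lies between -5.82 and -4.75, *SEP2* between -0.26 and 0.79, and *GI* between 2.58 and 2.96.

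Ratios between 2 of the genes on the same array do not depend on the scaling between arrays. In 4 of the 6 pairs the ratio changed over the time course (permutation test of the F statistic with 100000 resamples, Benjamini-Hochberg over 6 pairs). Relative to 0 h, the log2 ratio of *OPR3* over *JMT* was higher by 3.19, 5.91, 2.07 and 2.12 after 3, 12, 24 and 48 h. Its permutation p of 1e-05 (adjusted p = 3e-05) is the smallest that this number of resamples can give. The ratios of *AOS* (adjusted p = 3e-05, also from the smallest p) and of *AIM1* (adjusted p = 0.00018) over *JMT* changed likewise, by 5.13 and 5.58 at 12 h. All arrays after BA lay above those of 0 h in these 3 ratios. The 3 ratios share *JMT* and hence its fall, so they are not separate results.

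Among the synthesis genes, *AOS* over *OPR3* also changed (permutation adjusted p = 0.0039). The ratio was lower than at 0 h by 0.60, 0.79, 0.42 and 0.55 log2 units at 3, 12, 24 and 48 h in the mean, and all 12 arrays after BA lay below those of 0 h. The increase of *OPR3* thus exceeded the movement of *AOS* on the same arrays. This difference was lost after normexp background correction (permutation adjusted p = 0.60). *AOS* over *AIM1* (permutation adjusted p = 0.21) and *OPR3* over *AIM1* (permutation adjusted p = 0.13) did not change by the test.

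The remaining genes of the jasmonate list gave 1 called change from 0 h. The list used here held 20 further probes, all of which were tested. They include CUST_16146 and CUST_3433 of *BSMT1*, a gene that the paper discusses under salicylic acid. At 3 h, 1 was called higher and none lower (background 1.69% and 0.896%). No probe among the 20 was called at 12 h (background 3.5% higher and 5.54% lower), 24 h (2.18% and 0.998%) or 48 h (1.88% and 0.818%). By adjusted p alone, 1 was higher and 1 lower at 3 h, where 5.52% and 6.6% of all tested probes were higher and lower by that rule. By the same rule 2 were higher and none lower at 12 h (background 18.3% and 16%), none higher and 1 lower at 24 h (background 7.3% and 7.25%), and none higher and 1 lower at 48 h (background 7.46% and 6.34%). Their median log2 change was 0.18, 0.08, -0.04 and -0.11 at 3, 12, 24 and 48 h, beside -0.04, 0.02, 0.01 and 0.02 over all tested probes. The F test passed for 6 of the 20, beside 56.2% of all tested probes.

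Upstream of *AOS*, the probes for lipid precursors and the lipoxygenase gave few changes. *FAD3* encodes the desaturase that makes linolenic acid in the endoplasmic reticulum, and its probe CUST_38272 was called at 3 h. The levels there were 3.06, 1.77 and 2.33, against 0.92, 0.04 and 1.28 at 0 h (log2 fold change 1.64 ± 0.50, limma adjusted p = 0.0492), and this call was lost in 12 of 15 alternative settings and in 10 of 15 fits with 1 array left out. Between later times CUST_38272 was lower at 12 h than at 3 h (-2.45 ± 0.50, adjusted p = 0.00185) and higher at 24 h than at 12 h (1.82 ± 0.50, adjusted p = 0.0178). The other 3 *FAD3* probes changed by 0.34 to 0.41 at 3 h and did not pass. CUST_38284, the *FAD3* probe of the study's main list, was higher at 12 h (0.66 ± 0.13, adjusted p = 0.00159) and lower at 48 h (-0.52 ± 0.13, adjusted p = 0.0222), at less than 2-fold both times. Unlike CUST_38272, it was lower at 24 h than at 12 h (-0.72 ± 0.13, adjusted p = 0.0012), and it was lower at 48 h than at 12 h by more than 2-fold (-1.18 ± 0.13, adjusted p = 2.05e-05).

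*SSI2*, a stearoyl-ACP desaturase, was represented by CUST_33425, whose levels at 48 h were -2.33, -3.55 and -2.28, against -4.36, -5.26 and -4.25 at 0 h. All 3 arrays of 48 h lay above those of 0 h, as for 21.1% of all tested probes. The change of 1.90 ± 0.60 missed the threshold (limma adjusted p = 0.0536). The second *SSI2* probe changed by -0.11 at 48 h (adjusted p = 0.466). *LOX2*, a plastid lipoxygenase, varied widely between replicates. Its probe CUST_17764 was at -0.18, -1.61 and -1.73 at 3 h, against -1.47, -2.02 and -2.08 at 0 h, and at -1.21, -1.68 and -3.57 at 12 h. Neither *LOX2* probe passed at any time, and their pooled SDs of 0.83 and 1.05 were larger than those of 99.1% and 99.7% of all probes. The *PLDα1* probe CUST_32106, for a phospholipase D, was lower at 24 h by 0.30 log2 units (adjusted p = 0.0437).

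For perception, the probes differed from 0 h by small amounts. *COI1* encodes the F-box protein that binds the active hormone, and CUST_32925 was lower at 3 h (-0.31 ± 0.09, adjusted p = 0.0489), whereas its other probe CUST_18096 gave -0.26 (adjusted p = 0.0919). *CUL1*, the scaffold of the same ubiquitin ligase, gave values between -0.22 and -0.02 over the 4 times. *AXR1*, which takes part in activating cullins, was higher at 12 h (0.28 ± 0.07, adjusted p = 0.00936). The probes of *MPK6*, a protein kinase, and *SAD2*, an importin-like protein, did not pass at any time. The *MPK6* probe CUST_5903 changed by 0.42 to 1.03 and had the same lowest array as *AOS* at 5 of 5 time points. The other *MPK6* probe, CUST_18905, moved less, with mean levels between -0.91 and -0.72. Its pooled SD was 0.17, against 0.71 for CUST_5903.

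**Figure D5:**
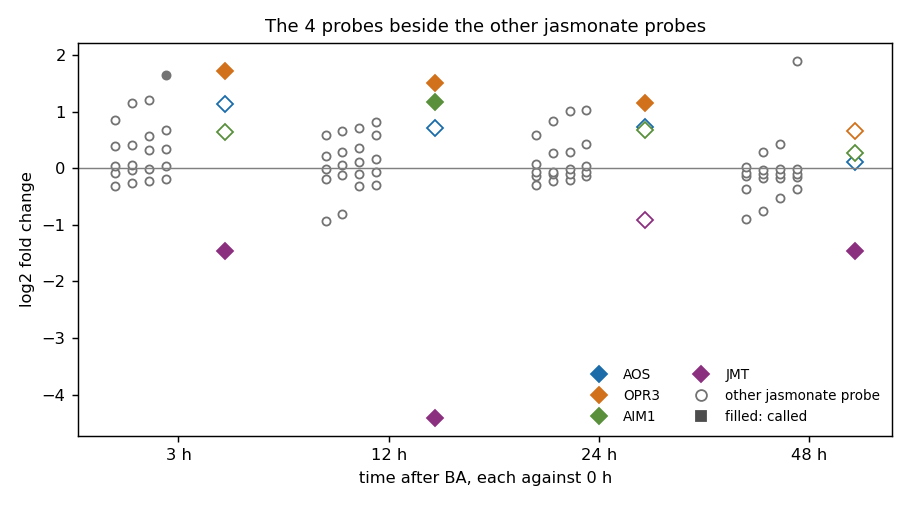
Log2 fold change against 0 h (vertical axis) at 3, 12, 24 and 48 h for the 20 other jasmonate probes (circles, spread sideways to separate them) and the probes of *AOS*, *OPR3*, *AIM1* and *JMT* (diamonds); filled symbols are called. Of the circles 1 is filled, at 3 h (*FAD3*, 1.64), and the lowest lies at -0.94, against -4.41 for *JMT* at 12 h.

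*JMT* belongs to the SABATH family of methyltransferases, which also holds *BSMT1* (salicylate and benzoate) and *IAMT1* (indole-3-acetate). The *BSMT1* probe CUST_16146 was at 3.91, 3.22 and 2.78 at 3 h, against 3.22, 1.20 and 1.88 at 0 h. These arrays overlapped, and the change of 1.20 ± 0.52 did not pass (adjusted p = 0.159). It passed without 0 h replicate 1 (1.76, adjusted p = 0.0434), the array on which *AOS* also changed its call. Its changes at 12, 24 and 48 h were 0.71, 0.59 and -0.37, beside -4.41, -0.91 and -1.46 for *JMT*. Of 3 *IAMT1* probes, 2 were tested, and both passed the F test over the time course, as did 56.2% of all tested probes. The 2 *IAMT1* probes changed by -1.18 and -1.08 at 12 h, which did not pass (limma adjusted p = 0.0674 and 0.0653). For the first of these, CUST_14683, the arrays of 12 h were at -4.65, -4.15 and -6.57, against -4.06, -3.81 and -3.98 at 0 h, so that replicate 3 was far below the others.

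The probes most like each gene over the 15 arrays were found by Pearson's r. Points share arrays and time points, and r is given as a description. For *AOS*, the closest among 146 probes named in the study's hormone, flowering and primer tables were *OPR3* (0.898) and *BSMT1* CUST_16146 (0.874). The 146 left out CUST_5903 of *MPK6* (r = 0.889 with *AOS* and 0.767 with *OPR3*) and CUST_3433 of *BSMT1* (0.885 and 0.738). Among all probes, the closest to *AOS* were CUST_30692 of *AOS* and the unnamed CUST_35309 (0.997 each). For *OPR3*, the closest of the 146 were *AOS* (0.898) and *BSMT1* CUST_16146 (0.745). Among all probes they were CUST_21164 (0.951) and CUST_27010 (0.915). Neither of the last pair is named in the tables used here, and both were well above background on no array of 0 h. CUST_21164 was so on no array of 48 h either, and on 3 of 3 arrays only at 3 h, so its r rests partly on values near the floor. For *AIM1*, the closest of the 146 were *VAD1* (0.871), a regulator of cell death in *Arabidopsis*, and *GA2OX6* (0.833), a gibberellin 2-oxidase. Among all probes, none reached 0.9 with *AIM1*.

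*JMT* had many probes of like course, with 332 at r of 0.9 or more, whereas *AOS* had 28 and *OPR3* had 3. The closest named ones were a cation efflux protein probe, CUST_11629 (0.96), and *SEP2* (0.934). CUST_11629 was well above background on no array of 12 h and on all others, and its normalized level averaged -8.81 at 12 h, against -2.88 at 0 h. *SEP2*, a MADS-box gene of floral organ identity, was at 0.79, 0.51 and -0.26 at 12 h, against 1.67, 1.75 and 1.67 at 0 h (log2 fold change -1.35 ± 0.20, limma adjusted p = 0.000305). Among all probes the closest were CUST_19973 of *JMT* and the unnamed CUST_16145 (0.999).

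The homolog of *TASSELSEED2*, which in maize is needed for carpels to abort in male flowers, was lower at 12, 24 and 48 h than at 0 h. Its levels were 1.13, 0.81 and 0.89 on the 0 h arrays, 1.15, 0.49 and 0.33 on those of 3 h, 0.30, -0.02 and -1.09 on those of 12 h, -0.95, -0.70 and -0.90 on those of 24 h, and -0.95, -0.34 and -0.91 on those of 48 h. It was lower than at 0 h by 1.21, 1.80 and 1.68 log2 units at 12, 24 and 48 h (adjusted p = 0.00924, 0.00614 and 0.0072), and its course was not tested against that of *JMT*.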

How the data were processed

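Transcript levels were measured with 15 one-colour Agilent arrays of 60-base probes, 3 for each of 5 time points. The probes were designed from *J. curcas* sequences and some castor bean flower sequences. The authors scanned each array at a low and a high gain. The deposited spot intensities came from Agilent Feature Extraction (version 10.7.3.1), after subtraction of the background and spatial detrending of each array. They also deposited a table of log2 values, of which 99.99% lay within 0.1 of the same intensities after log2 and quantile normalization.

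Each array was then scaled by subtracting its 75th percentile (12.31 to 12.85 on the log2 scale), control spots and spots marked as outliers (39 to 162 per array) were left out, and repeated spots were averaged. The test covered 34470 of 41651 probes (82.8%). These were well above background at some time point on every array that kept an unmarked spot of the probe. Time point was the only factor of a moderated linear model of the 15 arrays (limma 3.58.1, run under R 4.3.3), and adjusted p-values are Benjamini-Hochberg over all tested probes. For single genes, the side of the threshold refers to the adjusted p alone. Confidence intervals use the moderated degrees of freedom. Exact permutation of 3 arrays against 3 cannot go below p = 0.10 and was not used. Ratios between genes were tested with Python 3.11.15 and numpy 2.4.6. The tests were checked on simulated data. Precision is bounded by the 3 arrays per time point, and p-values measure only the spread between these samples.

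Gene names come from the study's hormone, flowering and primer tables. Further probes of a gene come from a second listing in which rows with a blank gene were taken to belong to the gene above. The 4 genes, the gene lists, the marker probes and the rule for named probes (the 4 genes, other jasmonate probes that were called, the closest probes by Pearson's r, *GI* and *TASSELSEED2*) were chosen with earlier results of these data known. The alternatives were other scalings, the deposited log2 table, normexp background correction, other probe filters, slide, scan day or replicate number as a block, no moderation, only the 6 arrays compared, and each array left out. Columns of the study's own fold changes and p-values were not used.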

Additional observations from a re-analysis of the deposited data

Results flagged for a closer look

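The change of *JMT* from 0 h differed between consecutive time points by limma's test of the step, both into and out of 12 h. The difference of 12 h over 3 h was -2.95 on the log2 scale (adjusted p = 7.25e-06), and that of 24 h over 12 h was 3.5 (adjusted p = 3.04e-06). Both steps passed under all 15 alternative settings that gave a value and with each single array left out, between -3.13 and -2.59 for the first and between 3.15 and 3.68 for the second with 1 array left out. For *AOS*, *OPR3* and *AIM1*, no step between consecutive time points from 3 h on passed the test.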

How the results depend on the processing

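The changes of *JMT* at 12 h and of *OPR3* at 3 and 12 h kept their direction and passed in all alternatives run. With 1 array left out, they lay between -4.59 and -4.06, 1.43 and 1.97, and 1.26 and 1.65. Replicate numbers were not used as a pairing in the main fit. The correlation of same-numbered deviations lay between -0.27 and 0.37 (11 of 30 over 0.1). For different numbers it lay between -0.33 and 0.41 (18 of 60 over 0.1), and 6 of 15 arrays correlated best with their own number. These correlations cannot tell how the samples were collected. With the replicate block, the adjusted p was 0.0551 for the *AIM1* F test and 0.0361 for *JMT* at 24 h (-0.91), the number of other jasmonate probes called was 0 at 3 h and 1 at 48 h, and the counts of all probes called were 878, 3110, 1120 and 936 at 3, 12, 24 and 48 h.

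Without scaling, *AOS* passed at 3 h (1.28), at 12 h (0.95) and in the F test (0.0242), and *OPR3* at 48 h (0.95). With the scan day entered as a block, *AOS* passed at 3 h (1.88) and in the F test (0.0282), whereas *OPR3* at 24 h (2.03) and *JMT* at 3 h (-1.09) and 48 h (-0.89) did not. With the slide entered as a block, the *AOS* F test passed (0.0465), and *OPR3* at 24 h (2.47), *AIM1* at 12 h (1.60) and the *AIM1* F test (0.0619) did not. With normexp, *OPR3* at 24 h (0.94), *AIM1* at 12 h (0.42), its F test (0.425) and the ratio of *AOS* over *OPR3* (0.60) did not pass, and *OPR3* over *AIM1* did (0.0099). Without moderation, *OPR3* at 24 h (1.15) and the *AIM1* F test (0.0676) did not pass. *JMT* at 24 h passed with quantile normalization (-0.93), median scaling (-0.95) and only the 6 arrays compared (-0.91). The cause was not tested for these changes of call.

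Directions turned only for values that did not pass. With the slide entered as a block these were *JMT* at 24 h (0.71), *AOS* at 12 h over 3 h (0.24) and at 24 h over 3 h (0.80), *OPR3* at 12 h over 3 h (0.22) and at 24 h over 3 h (0.16), and *AIM1* at 24 h over 3 h (-0.40, and -0.01 with the slide as a random block). *OPR3* at 12 h over 3 h was 0.07 with the scan day entered as a block. With normexp, *AIM1* was -0.09 at 3 h and -0.43 at 48 h. *AOS* at 24 h over 12 h was -0.02 with quantile normalization and the deposited log2 table, -0.01 with median scaling and -0.04 without scaling. *JMT* at 48 h over 3 h was -0.03, -0.03 and -0.02 with quantile normalization, the deposited log2 table and median scaling. Comparisons of 24 h and 48 h with 3 h, and of 48 h with 12 h, were added after seeing the data.

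The number of the 4 probes called was 0 at 24 h with normexp, with the slide or the scan day entered as a block and in the fit without moderation, and 0 at 48 h with the scan day entered as a block. The number of other jasmonate probes called at 3 h was 0 in 12 of 15 alternatives, and at 48 h 1 without scaling and with only the 6 arrays compared. The number of all probes called (893, 3115, 1097 and 931) was 445, 131 and 183 with normexp at 3, 24 and 48 h, 1954 and 3 with the slide entered as a block at 12 and 24 h, 230 and 225 with the scan day entered as a block at 24 and 48 h, 1496 without scaling at 48 h, and 592 at 48 h under the filter that asks for a signal well above background on every array.

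With each array left out, *AOS* at 3 h lay between 0.75 and 1.44 and passed without 0 h replicate 1, as did its F test (0.0416 to 0.152). *AOS* lay between -0.20 and 0.42 at 48 h, and between -0.26 and 0.25 at 24 h over 12 h. *OPR3* lay between 0.92 and 1.39 at 24 h, between -0.46 and 0.07 at 12 h over 3 h, and between -1.31 and -0.78 at 48 h over 3 h, which did not pass without 3 h replicate 1 or 3 or 48 h replicate 2 or 3. The *AIM1* F test gave 0.0144 to 0.0857 and did not pass without replicate 2 or 3 of 0 h, 1 or 3 of 12 h, or 1 or 2 of 48 h. *AIM1* lay between -1.05 and -0.67 at 48 h over 12 h, which did not pass without replicate 1 or 3 of 12 h or 1 or 2 of 48 h, and between -0.21 and 0.27 at 24 h over 3 h. *JMT* at 24 h lay between -1.03 and -0.82 and passed without 12 h replicate 3 or 48 h replicate 2, and at 48 h over 3 h it lay between -0.24 and 0.22. The ratios of *AOS* and *OPR3* over *AIM1* gave 0.019 to 0.50 and 0.028 to 0.32, the first passing without 12 h replicate 2 and the second without 12 h replicate 2 or 3. The number of the 4 probes called at 24 h was 0 to 1. The number of other jasmonate probes called was 0 to 1 at 3, 12 and 48 h. All probes called numbered 530 to 1380 at 24 h and 432 to 985 at 48 h, moving by over 1.5 times without 0 h replicate 2 at both times, without 24 h replicate 3 at 24 h and without 48 h replicate 3 at 48 h.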
